A study of Homo sapiens with 8 samples.

Results

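The genes described here encode molecular chaperones of the cytosol and mitochondria with their co-chaperones and 2 transcription factors, in T3M4 cells that carried a guide RNA against METTL13 or a control guide. They were taken by gene symbol: the HSPA, HSPB, HSPD, HSPE and HSPH numbers, HSP90AA1 and HSP90AB1, the DNAJA, DNAJB and DNAJC numbers, TCP1 and CCT2 to CCT8, BAG1 to BAG6, HSF1, HSF2 and TRAP1, leaving out HSPA5, DNAJB9, DNAJB11, DNAJC3 and DNAJC10 of the endoplasmic reticulum. The rule found 72 of the 14668 gene symbols in the table. The description by compartment holds for the core of the set, but HSF1 and HSF2 are nuclear factors, DNAJB12, DNAJB14 and HSPA13 are known from the endoplasmic reticulum, DNAJC13 from endosomes and DNAJC8 from the spliceosome.

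T3M4 is a line of human pancreatic cancer cells. METTL13 methylates eEF1A, the elongation factor that brings aminoacyl-tRNA to the ribosome, at its N terminus and at a lysine. Cells of both guides were starved of serum for 18 h, and 10% FBS was added back 2 h before they were lysed. The groups were sgMETTL13 footprints, sgControl footprints, sgMETTL13 mRNA and sgControl mRNA, with 2 libraries in each. The labels name no second guide and do not say whether cells were a clone or a pool, or whether the replicates came from different cultures. The p-values therefore describe the spread among these libraries, and as both assays are bulk, fewer cells of a type and less RNA per cell cannot be told apart.

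Chaperones keep other proteins from aggregating and help them fold. HSP70 proteins bind short exposed stretches of a client and release them in a cycle driven by ATP: J-domain proteins (the DNAJ genes) deliver clients and start hydrolysis, and nucleotide exchange factors such as the HSP110 and BAG proteins reset the cycle. HSP90 completes the folding of many kinases and receptors, the ring-shaped chaperonin TRiC (also called CCT) encloses actin and tubulin among others, and HSP60 with its lid HSP10 does so inside mitochondria. HSF1 switches many of these genes on in stressed cells by binding inverted repeats of the unit GAA upstream of their start sites, and tumour cells are known to depend on this system.

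The sequences below show such repeats in 6 of the genes described. They are the 250 bases before a RefSeq start site (GRCh38.p14), written 5′ to 3′ along the gene, with capitals for a match to GAANNTTC or TTCNNGAA, each of which reads the same on both strands. DNAJB1 and HSPB1 are shown as the members with the lowest and the third lowest footprint log2 fold change, HSPA8 as the constitutive HSP70 that rose, HSPD1 as a mitochondrial member, which did not pass, and HSPA1A with HSPA1B as copies that the counts could not separate. DNAJB2, which stood between DNAJB1 and HSPB1, had no match in its window and is not shown. Every window shown holds a match, which most members lack.
DNAJB1, chr19:14518398-14518647, minus strand: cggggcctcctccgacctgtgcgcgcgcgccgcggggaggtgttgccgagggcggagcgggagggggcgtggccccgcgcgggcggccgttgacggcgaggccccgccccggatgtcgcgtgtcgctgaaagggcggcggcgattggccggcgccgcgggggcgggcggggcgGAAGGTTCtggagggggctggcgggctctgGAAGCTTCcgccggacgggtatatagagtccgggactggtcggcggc
HSPB1, chr7:76302423-76302672, plus strand: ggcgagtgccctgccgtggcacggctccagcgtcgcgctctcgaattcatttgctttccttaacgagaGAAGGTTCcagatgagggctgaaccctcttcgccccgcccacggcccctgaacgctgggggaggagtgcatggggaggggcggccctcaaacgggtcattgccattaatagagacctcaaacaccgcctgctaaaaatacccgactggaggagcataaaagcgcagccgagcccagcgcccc
HSPA8, chr11:123062137-123062386, minus strand: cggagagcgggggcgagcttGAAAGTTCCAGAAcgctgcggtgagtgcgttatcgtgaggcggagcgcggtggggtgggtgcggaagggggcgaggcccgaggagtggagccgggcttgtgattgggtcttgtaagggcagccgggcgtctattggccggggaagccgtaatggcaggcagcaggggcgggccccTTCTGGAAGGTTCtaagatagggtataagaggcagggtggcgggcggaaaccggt
HSPD1, chr2:197499841-197500090, minus strand: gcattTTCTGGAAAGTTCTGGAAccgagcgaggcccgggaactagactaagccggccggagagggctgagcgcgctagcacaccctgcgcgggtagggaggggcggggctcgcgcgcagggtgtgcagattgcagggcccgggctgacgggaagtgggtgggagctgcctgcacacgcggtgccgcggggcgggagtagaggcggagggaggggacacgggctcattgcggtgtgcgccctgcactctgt
HSPA1A, chr6:31815293-31815542, plus strand: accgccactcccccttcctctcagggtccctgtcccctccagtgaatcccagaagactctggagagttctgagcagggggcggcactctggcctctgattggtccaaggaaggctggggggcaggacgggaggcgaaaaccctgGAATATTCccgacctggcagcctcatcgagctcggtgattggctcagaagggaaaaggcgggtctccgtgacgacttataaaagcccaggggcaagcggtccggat
HSPA1B, chr6:31827488-31827737, plus strand: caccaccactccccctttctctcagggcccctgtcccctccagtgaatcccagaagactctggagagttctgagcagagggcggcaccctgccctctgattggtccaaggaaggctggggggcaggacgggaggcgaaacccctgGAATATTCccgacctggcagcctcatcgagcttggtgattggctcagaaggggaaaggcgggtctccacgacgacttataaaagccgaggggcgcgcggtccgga

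For DNAJB1 (3 start sites) and HSPD1 (2) the window with the most matches is shown, and their other windows held none. The HSPD1 window shown precedes its inner start site and lies downstream of the outer one. The window before the outer start site, on the side of HSPE1, held no match, and neither did the window of HSPE1. The windows of HSPA8 and HSPD1 also held an extended form with another unit (GAANNTTC followed by NNGAA, or TTCNNGAA followed by NNTTC). These forms are reverse complements of each other, so each covers both strands, and each contains both shorter motifs. In a global alignment HSPA1A and HSPA1B were identical at 235 of the 250 bases. RefSeq windows were found for 65 of the 72 members, and CCT6A, BAG4, HSPA14, DNAJC1, DNAJC24, HSF1 and DNAJC22 had no entry. A short motif stood in 21 of 89 member windows (23.6%), against 9.26% of the 17352 windows of all genes in the table, and the extended motif in 6 member windows (6.74%), against 0.357% of all. The extended motif was found in HSPA6, HSPD1, HSP90AB1, DNAJB6, HSPA8 and HSP90AA1. Among members past the test in footprints (below), a short motif stood in 3 of 10 windows of genes that fell (30%). It stood in 3 of 11 windows of genes that rose (27.3%). Counted by gene these were 3 of 6 and 3 of 9, against 21 of 65 members and 1464 of 11909 genes of the table. A match describes the letters of the window only.

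Library totals ran from 6063885 to 9837253 counts in footprints and from 20860953 to 48353722 in mRNA. Values are CPM, counts scaled to the library total with TMM factors. The limit that 0 counts sets (3 counts, counting error only) was 0.513 CPM for the shallowest footprint library and 0.144 CPM for the shallowest mRNA library. METTL13 footprints were 20.1 and 26.2 CPM in sgMETTL13, against 65.2 and 57.8 CPM in sgControl (log2 fold change -1.41, SE 0.164, edgeR adjusted p = 6.38e-07). Its mRNA was 25.2 and 35.1 CPM in sgMETTL13, against 89.7 and 71.4 CPM in sgControl, which did not pass (log2 fold change -1.42, SE 0.406, edgeR adjusted p = 1). The 7 epithelial markers KRT7, KRT8, KRT18, KRT19, EPCAM, CDH1 and MUC1 summed to 1674 to 1744 CPM in sgMETTL13 footprints and 1642 to 1725 CPM in sgControl footprints, while 3 endothelial markers summed to at most 0.711 CPM in sgMETTL13 footprints and 1.2 CPM in sgControl footprints, the 2 leukocyte markers in the table to at most 1.87 and 1.2 CPM, and 5 fibroblast markers to at most 21.7 and 25.2 CPM. In mRNA the leukocyte markers summed to 20.4 to 32.3 CPM in sgMETTL13 and 25.2 to 49.3 CPM in sgControl. Nearly all of this was CD68, while PTPRC had at most 2 counts in any mRNA library. The fibroblast markers summed to 23.7 to 32.9 CPM and 27.2 to 32.9 CPM. Most of this was COL1A1, with COL1A2, COL3A1 and PDGFRB each at most at 0.193 CPM. The epithelial markers summed to 2872 to 4188 CPM and 3625 to 4165 CPM.

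Footprints of chaperone genes shifted in both directions. Of the 72 members 59 passed the filter on low counts, and 9 of these rose and 6 fell in sgMETTL13 (edgeR's quasi-likelihood test, adjusted p below 0.05 over all genes). These are 15.3% and 10.2% of the members tested, against 8.94% higher and 12% lower among all 10714 genes tested, and in either direction 25.4% of members against 21% of all genes. The share of members past the test was thus near that of all genes. The median log2 fold change was 0.04 over the members tested and 0.01 over all genes. The members that rose were DNAJB6, DNAJC13, HSPH1, HSPA13, HSPA8, CCT8, HSPA9, CCT2 and CCT4. Those that fell were DNAJB1, DNAJB2, HSPB1, DNAJA4, DNAJC11 and DNAJC21. Groups that did not overlap were common: both sgMETTL13 libraries lay above both sgControl libraries in 32% of all genes tested, and below them in 32%. In all 6 that fell and in 8 of the 9 that rose, sgControl replicate 2 lay farther from the mean of the sgMETTL13 libraries than sgControl replicate 1. Likewise sgMETTL13 replicate 2 lay farther from the sgControl mean than sgMETTL13 replicate 1 in 4 of the 6 and in 8 of the 9. How often either held over all genes was not counted. The counts rested on single libraries: without sgControl replicate 2 no member rose and 2 fell (2.86% and 4.64% of all genes), and without sgMETTL13 replicate 2 none rose and 1 fell (2.33% and 4.11%). Without sgMETTL13 replicate 1, 1 rose and 3 fell (6.66% and 8.06%), and without sgControl replicate 1, 10 rose and 11 fell (12.7% and 14.6%). With DESeq2 4 rose and 4 fell (5.57% and 8.1%), with a replicate block 1 and 4 (6.68% and 9.45%), and in the model over all 8 libraries none did, as for all genes.

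**Figure D1:**
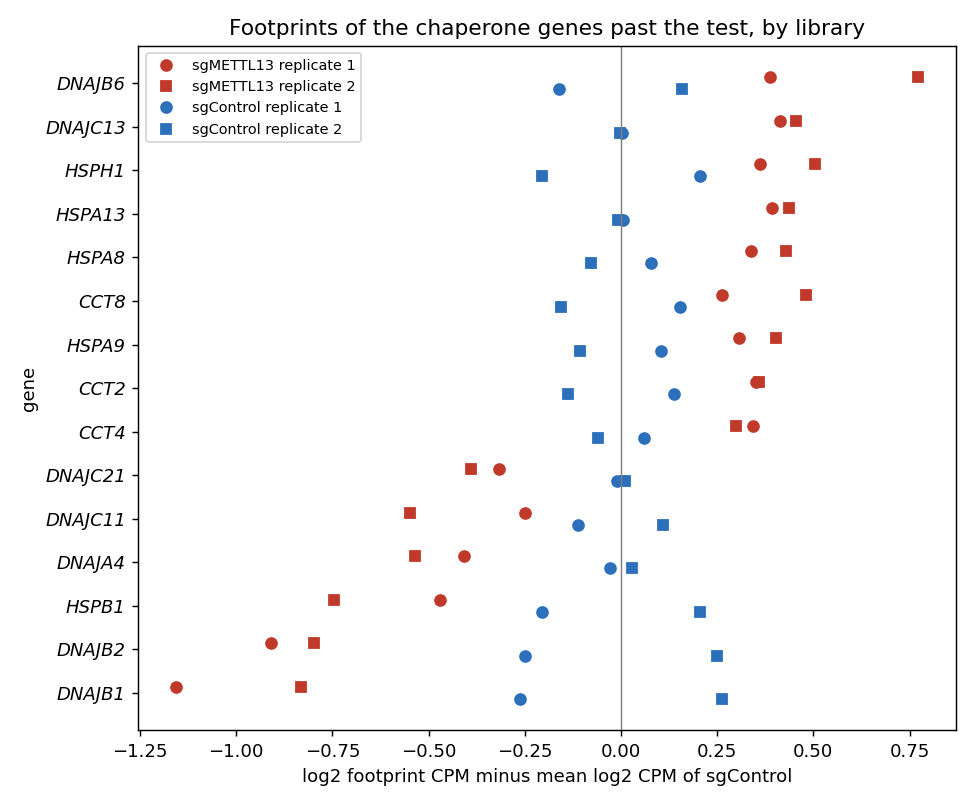
Footprints of the 15 chaperone genes past the test in each library, as log2 CPM minus the mean log2 CPM of the 2 sgControl libraries, with sgMETTL13 in red above sgControl in blue and replicates 1 and 2 as circles and squares. The sgMETTL13 points lie outside the range of the sgControl points for every gene. The sgControl squares lie farther from the mean of the sgMETTL13 points than the sgControl circles do in all 6 genes that fell. The same holds in 8 of the 9 that rose.

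Among the HSP70 and HSP110 genes, 3 of the 8 tested rose and none fell, with a median log2 fold change of 0.31, where 8.94% of all genes rose and 12% fell. Without sgControl replicate 2, sgMETTL13 replicate 1 or sgMETTL13 replicate 2 none of the 8 was called, with medians of 0.18, 0.27 and 0.27, and without sgControl replicate 1, 2 rose. HSPA8, the constitutive cytosolic HSP70 that also uncoats clathrin vesicles (chromosome 11, 123057489 to 123062462, GRCh38), had footprints of 718 and 765 CPM in sgMETTL13, against 599.6 and 538 CPM in sgControl. Both sgMETTL13 libraries lay above both sgControl libraries (log2 fold change 0.38, SE 0.119, edgeR adjusted p = 0.022, n = 2 per group). HSPH1, an HSP110 protein that exchanges the nucleotide of HSP70 (chromosome 13, 31134973 to 31162388), had 583 and 644 CPM in sgMETTL13, against 523 and 394 CPM in sgControl. The groups did not overlap, although the sgControl replicates differed from each other by more than the sgMETTL13 replicates did (log2 fold change 0.42, SE 0.131, edgeR adjusted p = 0.0219). HSPA13, a microsomal HSP70-like ATPase, had 68.8 and 70.9 CPM in sgMETTL13, against 52.6 and 52.2 CPM in sgControl, and here the replicates of each group were close together (log2 fold change 0.41, SE 0.143, edgeR adjusted p = 0.0383).

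Without sgControl replicate 2, sgMETTL13 replicate 1 or sgMETTL13 replicate 2, these 3 genes no longer passed. The log2 fold changes were then 0.30, 0.42 and 0.34 for HSPA8, 0.22, 0.48 and 0.35 for HSPH1 and 0.40, 0.43 and 0.39 for HSPA13, which also missed without sgControl replicate 1 (0.42). HSPH1 stood at 0.64 without sgControl replicate 1 and passed. The other members of the class did not pass. HSPA4, a second HSP110 protein, had 1751 and 1552 CPM in sgMETTL13, against 1765 and 1701 CPM in sgControl, overlapping groups with a log2 fold change of -0.07 (SE 0.116). Its relative HSPA4L stood at 0.18 (SE 0.131), HSPA14, the HSP70 of the complex that sits at the ribosome exit, at 0.25 (SE 0.182), HSPA2 at -0.01 (SE 0.266) and HSPA12A at 0.53 (SE 0.432). HSPA8 has 20 named pseudogenes in RefSeq that short footprints can match.

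The heat-inducible HSP70 genes could not be measured in footprints. HSPA1A and HSPA1B are near-identical neighbours on chromosome 6, at 31815543 to 31817942 and 31827738 to 31830254 (GRCh38). HSPA1A mRNA had 5 and 2 counts in sgMETTL13, against 2 and 0 counts in sgControl, and HSPA1B mRNA 1 and 1 counts in sgMETTL13, against 2 and 0 counts in sgControl. Each had 0 footprints in both sgMETTL13 libraries and 1 in each sgControl library. All these footprint counts are within the 3 counts that a count of 0 allows. How reads that match both copies were counted is not stated, so these values say nothing of the level of either gene. HSPA6, an inducible HSP70 of human cells, had footprints of 3 and 1 counts in sgMETTL13, against 3 and 1 counts in sgControl, and also failed the footprint filter. Its mRNA was tested on 17 and 36 counts in sgMETTL13, against 35 and 18 counts in sgControl and did not pass (log2 fold change -0.54, SE 0.547, edgeR adjusted p = 1).

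Genes of J-domain proteins moved in both directions, and the largest footprint change of the set was a fall in one of them. DNAJB1, the HSP40 that works with HSP70 and is itself a target of HSF1 (chromosome 19, 14514769 to 14560391), had 13.4 and 16.8 CPM in sgMETTL13, against 24.9 and 35.9 CPM in sgControl. The sgMETTL13 libraries lay below the sgControl libraries with a clear gap (log2 fold change -0.998, SE 0.195, edgeR adjusted p = 0.000611, n = 2 per group). Of the 15 members called, DNAJB1 was the only member that passed with any 1 footprint library left out, at log2 fold changes of -1.25 to -0.73. DNAJB1 mRNA was 194 and 244 CPM in sgMETTL13, against 241 and 289.7 CPM in sgControl, overlapping ranges (log2 fold change -0.27, SE 0.342). DNAJB2, a J-domain protein with ubiquitin-binding motifs known from neurons, had footprints of 4.67 and 5.05 CPM in sgMETTL13, against 7.38 and 10.4 CPM in sgControl (log2 fold change -0.85, SE 0.263, edgeR adjusted p = 0.021). These were 46 and 46 counts in sgMETTL13 and 61 and 61 in sgControl.

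DNAJB6, which holds back the aggregation of polyglutamine proteins, moved the other way. It had footprints of 13.6 and 17.8 CPM in sgMETTL13, against 9.32 and 11.6 CPM in sgControl (log2 fold change 0.60, SE 0.217, edgeR adjusted p = 0.049), on 134 and 162 counts in sgMETTL13 and 77 and 68 in sgControl. Its mRNA had 8860 and 6738 counts in sgMETTL13 and 6948 and 2930 in sgControl, and 8 pseudogenes are named after it. DNAJB4 had 17.6 and 22.4 CPM in sgMETTL13, against 19.5 and 10.8 CPM in sgControl and overlapping groups (log2 fold change 0.37, SE 0.218). DNAJB5, DNAJB12 and DNAJB14 did not pass either, at 0.29 (SE 0.341), -0.01 (SE 0.162) and 0.13 (SE 0.27). DNAJB13, a J-domain protein of sperm flagella and cilia, failed the filter. Without sgControl replicate 2 and the 2 sgMETTL13 replicates in turn, the log2 fold change of DNAJB2 was -0.61, -0.80 and -0.90 with no call. DNAJB6 missed without sgControl replicate 1 (0.43), sgControl replicate 2 (0.74) or sgMETTL13 replicate 2 (0.39).

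Of the type A J-domain genes DNAJA4 fell and none rose. DNAJA4, a cytosolic co-chaperone of HSP70, had 80.2 and 73.3 CPM in sgMETTL13, against 104 and 108 CPM in sgControl, with the replicates of each group close together (log2 fold change -0.47, SE 0.136, edgeR adjusted p = 0.0143). Its log2 fold change was -0.45, -0.54 and -0.40 without sgControl replicate 2, sgMETTL13 replicate 1 and sgMETTL13 replicate 2 in turn, and it then no longer passed. DNAJA1 and DNAJA2 encode partners of HSPA8. DNAJA1 read 1041 and 1150.0 CPM in sgMETTL13, against 1033 and 1137 CPM in sgControl. For DNAJA2 the values were 907 and 776 CPM in sgMETTL13, against 864 and 932 CPM in sgControl. Both overlapped between the groups, with log2 fold changes of 0.01 (SE 0.118) and -0.09 (SE 0.12). DNAJA3, the J-domain partner of mitochondrial HSP70, had footprints of 57 and 34 counts in sgMETTL13, against 25 and 23 counts in sgControl (log2 fold change 0.48, SE 0.315).

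Type C genes, whose products share the J domain alone and serve many separate tasks, held 1 member that rose and 2 that fell among the 17 tested. Their median log2 fold change was -0.14. With 8.94% of all genes higher and 12% lower, these counts are near the background. Without sgControl replicate 1, 1 rose and 6 fell of 18 tested, without sgMETTL13 replicate 1, 1 fell, and without either replicate 2 none was called. DNAJC13, which acts with HSPA8 on endosomes, rose with 137 and 141 CPM in sgMETTL13, against 103 and 103 CPM in sgControl (log2 fold change 0.43, SE 0.132, edgeR adjusted p = 0.0183). The replicates within each group were nearly equal. DNAJC11, a mitochondrial protein bound to the cristae-organising complex, fell with 310.0 and 252 CPM in sgMETTL13, against 341 and 398 CPM in sgControl (log2 fold change -0.39, SE 0.13, edgeR adjusted p = 0.0296). DNAJC21, a factor of large ribosomal subunit maturation, fell with 379 and 359.9 CPM in sgMETTL13, against 468 and 475 CPM in sgControl (log2 fold change -0.35, SE 0.12, edgeR adjusted p = 0.0337). DNAJC13 and DNAJC21 missed the threshold without sgControl replicate 2, sgMETTL13 replicate 1 or sgMETTL13 replicate 2, at 0.43, 0.45 and 0.42 and at -0.35, -0.40 and -0.32, and DNAJC11 without sgControl replicate 2 (-0.29) or sgMETTL13 replicate 2 (-0.25).

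The 14 other type C genes tested did not pass. DNAJC8 stood highest among them at 0.36 (SE 0.135) and DNAJC17 lowest at -0.40 (SE 0.153). DNAJC7, which hands clients between HSP70 and HSP90, had 404 and 398 CPM in sgMETTL13, against 384 and 415 CPM in sgControl, a difference of 0.00 (SE 0.12). DNAJC2, the ribosome-bound partner of HSPA14, had 384 and 357 CPM in sgMETTL13, against 416 and 400.5 CPM in sgControl, lower in both sgMETTL13 libraries but not past the threshold (log2 fold change -0.14, SE 0.12). The 6 type C members that failed the footprint filter were DNAJC4, DNAJC12, DNAJC15, DNAJC19, DNAJC22 and DNAJC27. DNAJC19, a subunit of the mitochondrial import motor, had footprints of 8 and 13 counts in sgMETTL13, against 8 and 2 counts in sgControl. Its mRNA had 2351 and 1693 counts in sgMETTL13, against 1478 and 597 counts in sgControl, and 9 pseudogenes carry its name.

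**Figure D2:**
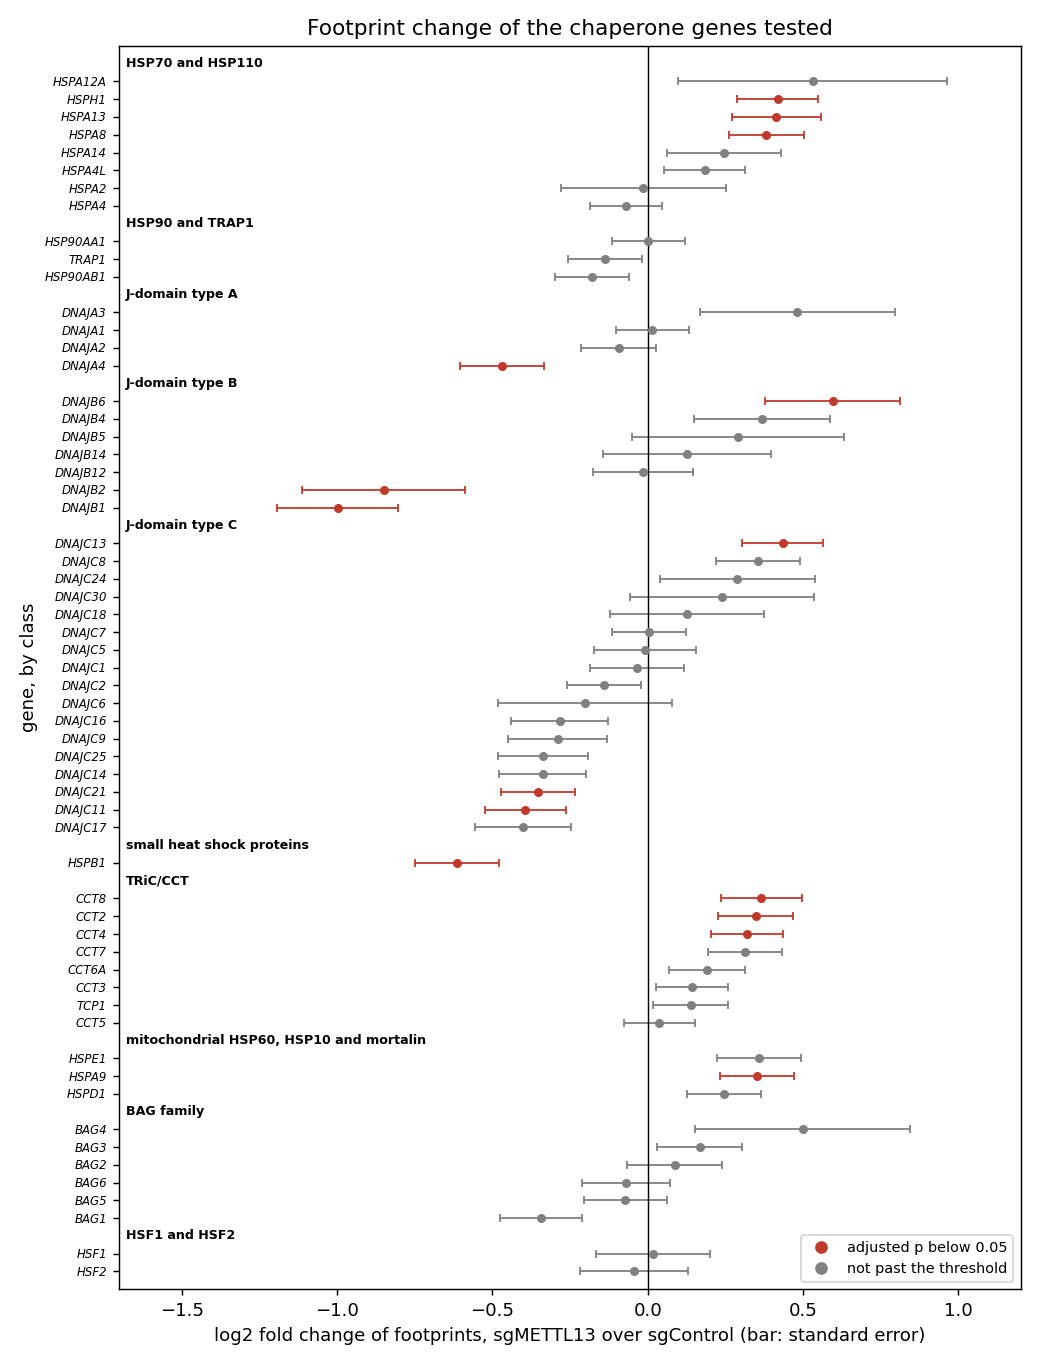
Log2 fold change of footprints (sgMETTL13 over sgControl) with its standard error for the 59 chaperone genes tested, grouped by class, with the 15 genes past the threshold in red. The 8 TRiC subunits and the 3 mitochondrial HSP60, HSP10 and mortalin genes lie above 0, while J-domain genes spread from -0.998 for DNAJB1 to 0.60 for DNAJB6.

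HSPB1 was the only small heat shock protein gene with enough footprints to test. HSPB1 (HSP27, chromosome 7, 76302673 to 76304292), which holds unfolding proteins in large oligomers, fell with 419.8 and 347 CPM in sgMETTL13, against 504 and 671 CPM in sgControl (log2 fold change -0.62, SE 0.135, edgeR adjusted p = 0.00177). Both sgMETTL13 libraries lay below both sgControl libraries, and the sgControl replicates differed by 0.41 on the log2 scale. Without sgMETTL13 replicate 2 the log2 fold change was -0.48 and did not pass, and without sgControl replicate 2 it was -0.40 and passed. HSPB1 mRNA was 302 and 483 CPM in sgMETTL13, against 414 and 504 CPM in sgControl, a log2 fold change of -0.23 (SE 0.36) that did not pass. HSPB3 had 6 to 9 footprints in sgMETTL13 and 4 to 8 in sgControl, HSPB8 5 to 9 and 3 to 5, and HSPB6 none in any library.

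All 8 subunits of TRiC had more footprints in sgMETTL13 by their log2 fold change, and 3 of them rose. A log2 fold change above 0 was also seen in 51% of all genes tested, and 8.94% of all genes rose. CCT8 had 338 and 393 CPM in sgMETTL13, against 313 and 253 CPM in sgControl (log2 fold change 0.37, SE 0.13, edgeR adjusted p = 0.0438). CCT2 had 1113 and 1119 CPM in sgMETTL13, against 959.9 and 793 CPM in sgControl (log2 fold change 0.35, SE 0.121, edgeR adjusted p = 0.0387). CCT4 had 1473 and 1429 CPM in sgMETTL13, against 1211 and 1114 CPM in sgControl (log2 fold change 0.32, SE 0.116, edgeR adjusted p = 0.0476). For each of these 3 subunits, picked by the test on the same values, both sgMETTL13 libraries lay above both sgControl libraries. The same was seen in 32% of all genes tested. CCT7 missed narrowly with 863 and 957 CPM in sgMETTL13, against 732 and 733 CPM in sgControl (log2 fold change 0.31, SE 0.118, edgeR adjusted p = 0.0554).

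The other 4 subunits of the ring did not pass and had smaller log2 fold changes. CCT6A stood at 0.19 (SE 0.123), CCT3 at 0.14 (SE 0.115), TCP1 at 0.14 (SE 0.12) and CCT5 at 0.04 (SE 0.115). CCT5 had 1640.1 and 1738 CPM in sgMETTL13, against 1617 and 1675 CPM in sgControl, overlapping ranges. The median over the 8 subunits was 0.25, and the range of 0.04 to 0.37 was not tested for differences between subunits, which assemble in equal numbers in the ring. The log2 fold changes of CCT8, CCT2 and CCT4 without sgControl replicate 2, sgMETTL13 replicate 1 and sgMETTL13 replicate 2 in turn were as follows, none with a call. CCT8 stood at 0.22, 0.46 and 0.26, CCT2 at 0.21, 0.35 and 0.35, and CCT4 at 0.26, 0.29 and 0.34. With each footprint library left out in turn all 8 subunits stayed above 0, except without sgMETTL13 replicate 2, when 7 of 8 did. DESeq2 called none of the 8, and limma voom called 4, where it called 8.67% of all genes higher.

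In mitochondria HSPA9 (mortalin), the HSP70 that pulls imported proteins across the inner membrane (chromosome 5, 138553756 to 138575401), rose. It had 1740.4 and 1859 CPM in sgMETTL13, against 1513 and 1307 CPM in sgControl, with no overlap of the groups (log2 fold change 0.35, SE 0.118, edgeR adjusted p = 0.0322). HSPD1, the HSP60 chaperonin, had 877 and 902 CPM in sgMETTL13, against 806 and 693 CPM in sgControl (log2 fold change 0.25, SE 0.119, edgeR adjusted p = 0.14). HSPE1, its HSP10 lid, had 167 and 209 CPM in sgMETTL13, against 154 and 138 CPM in sgControl (log2 fold change 0.36, SE 0.136, edgeR adjusted p = 0.058). HSPD1 and HSPE1 did not pass, although in each both sgMETTL13 libraries lay above both sgControl libraries, as was seen in 32% of all genes tested. The pair lies head to head on chromosome 2 with 104 bases between the gene starts, and RefSeq names 22 pseudogenes of HSPD1 and 28 of HSPE1. HSPA9 no longer passed without sgControl replicate 2, sgMETTL13 replicate 1 or sgMETTL13 replicate 2, at 0.25, 0.39 and 0.31. Without sgControl replicate 1 all 3 genes of this group passed.

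The HSP90 genes and the heat shock factors did not pass in footprints. HSP90AA1, the inducible cytosolic HSP90, had 4015 and 4034 CPM in sgMETTL13, against 3725 and 4309 CPM in sgControl, and the sgMETTL13 values lay between the sgControl values (log2 fold change 0.00, SE 0.116, edgeR adjusted p = 0.991). HSP90AB1, the constitutive form, had 5129.6 and 4487 CPM in sgMETTL13, against 5007 and 5873 CPM in sgControl (log2 fold change -0.18, SE 0.119), and TRAP1, the mitochondrial HSP90, 596 and 532 CPM in sgMETTL13, against 598 and 643 CPM in sgControl (log2 fold change -0.14, SE 0.12). HSF1 had 19.0 and 22.6 CPM in sgMETTL13, against 21.8 and 19.2 CPM in sgControl. HSF2 footprints were 29.8 and 24.6 CPM in sgMETTL13, against 25.3 and 31.1 CPM in sgControl. The groups overlapped in both genes, with log2 fold changes of 0.02 (SE 0.183) and -0.04 (SE 0.174).

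No BAG gene passed among the 6 tested. BAG1, a nucleotide exchange factor that links HSP70 to the proteasome, had 122 and 121 CPM in sgMETTL13, against 144 and 165 CPM in sgControl, lower in both sgMETTL13 libraries (log2 fold change -0.34, SE 0.132, edgeR adjusted p = 0.0608). BAG3, the stress-inducible member that directs clients to autophagy, had 101 and 115 CPM in sgMETTL13, against 92.2 and 101 CPM in sgControl (log2 fold change 0.17, SE 0.137). BAG2 and BAG5 stood at 0.09 (SE 0.154) and -0.07 (SE 0.134), and BAG4, on few footprints, at 0.50 (SE 0.345).

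No chaperone mRNA passed the test between the guides. edgeR called 0 of the 67 members tested and 0% of all 12468 genes, and the unadjusted p was below 0.05 for 1 member and 100 genes. No member was called by DESeq2 or limma voom. The 3 members with the smallest p were DNAJB14, DNAJB4 and HSPE1. DNAJB14 mRNA was 47.9 and 10.9 CPM in sgMETTL13, against 11.2 and 7.99 CPM in sgControl (log2 fold change 1.61, SE 0.622, edgeR adjusted p = 1). DNAJB4 mRNA was 29.4 and 3.94 CPM in sgMETTL13, against 6.11 and 5.11 CPM in sgControl (log2 fold change 1.57, SE 0.725, edgeR adjusted p = 1). HSPE1 mRNA was 102 and 12.4 CPM in sgMETTL13, against 27.5 and 6.79 CPM in sgControl (log2 fold change 1.73, SE 0.833, edgeR adjusted p = 1). In each case sgMETTL13 replicate 1 was the highest of the 4 libraries and stood far above sgMETTL13 replicate 2.

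That pattern ran through much of the set. In sgMETTL13 mRNA replicate 1 exceeded replicate 2 in 44 of 67 members (65.7%), with a median log2 ratio of 0.46 and 23 members (34.3%) over 2-fold. Over all genes 49.4% were higher in replicate 1, the median was -0.01 and 21.3% were over 2-fold. In sgControl mRNA replicate 1 exceeded replicate 2 in 45 of 67 members (67.2%), with a median of 0.17. There 1 member (HSPE1, 1.49%) was over 2-fold higher in replicate 1. Over all genes these values were 50.6%, 0.01 and 1.43%, so the share over 2-fold was that of all genes. In footprints the median ratio was -0.08 in sgMETTL13 and -0.02 in sgControl, with no member over 2-fold in either, against 0.401% and 1.33% of all genes. Across the 67 members the ratios in sgMETTL13 mRNA and sgControl mRNA had a Pearson r of 0.67 (r = 0.38 over 12468 genes), given as a description, since genes of a library are not independent.

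HSP90AA1 mRNA was 2566 and 763 CPM in sgMETTL13, against 1468 and 972 CPM in sgControl, and HSPH1 mRNA 373 and 104 CPM in sgMETTL13, against 166 and 128 CPM in sgControl. CCT8 mRNA was 359 and 101 CPM in sgMETTL13, against 187 and 113 CPM in sgControl. HSPD1 mRNA was 1169 and 399 CPM in sgMETTL13, against 797 and 467 CPM in sgControl, and HSPA13 mRNA 58.1 and 10.6 CPM in sgMETTL13, against 19.0 and 13.2 CPM in sgControl. In all 5 genes sgMETTL13 replicate 1 was the highest library and sgMETTL13 replicate 2 the lowest. Other members had steady mRNA: CCT5 read 1235 and 1190.5 CPM in sgMETTL13, against 1230.4 and 1195 CPM in sgControl, and HSP90AB1 2970.4 and 2566 CPM in sgMETTL13, against 3012 and 2481 CPM in sgControl. HSF1 mRNA, 143 and 217 CPM in sgMETTL13, against 182 and 236 CPM in sgControl, was lower in replicate 1 than in replicate 2 in both groups, as were BAG3, DNAJB1 and HSPB1.

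**Figure D3:**
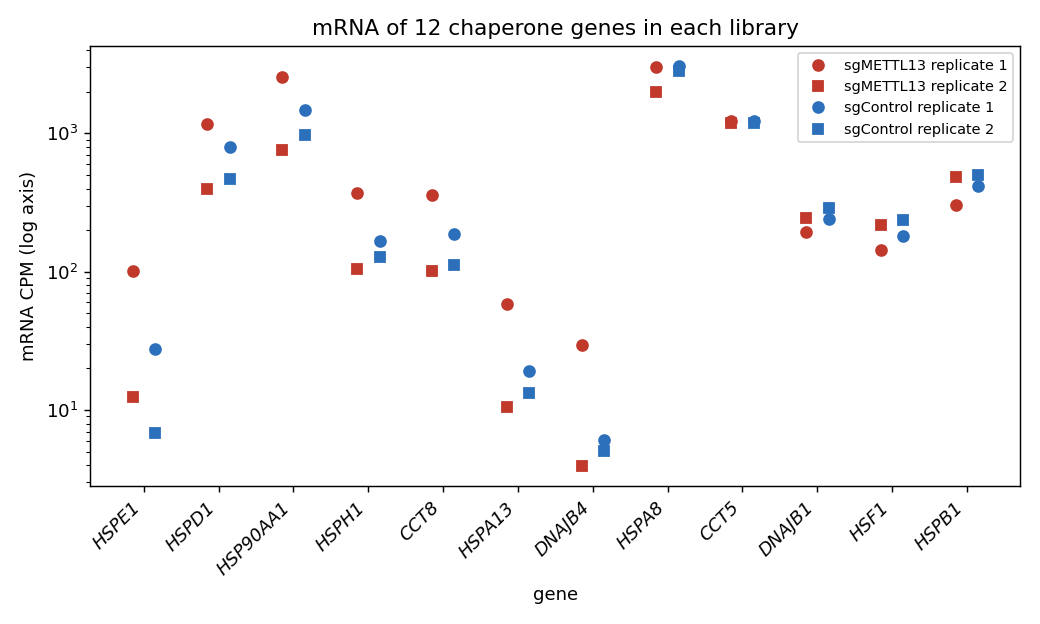
mRNA level (CPM, log axis) of 12 chaperone genes, chosen after their values were seen, in the sgMETTL13 libraries (red) and the sgControl libraries (blue), with replicates 1 and 2 as circles and squares. HSPE1, HSPD1, HSP90AA1, HSPH1, CCT8, HSPA13 and DNAJB4 stand highest in sgMETTL13 replicate 1, whereas CCT5 is level and HSF1, DNAJB1 and HSPB1 stand lowest there.

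The call on mRNA therefore rested on which sgMETTL13 library was used. Without sgMETTL13 replicate 2, 19 members were higher and 1 lower, or 28.4% and 1.49% of 67, against 18.7% and 1.19% of all genes tested. Then HSPE1 stood at 2.55, DNAJB14 at 2.30 and DNAJB4 at 2.38. Among the others were HSPA13 at 1.84, HSPH1 at 1.34 and HSP90AA1 at 1.07. Leaving out either sgMETTL13 library left 1 in that group. The calls, SEs and p of both fits therefore hold no measure of the spread between the sgMETTL13 libraries, which was wide for these genes. Without sgMETTL13 replicate 1 no member passed (0.135% of all genes were higher and 0.0793% lower), HSPE1 read -0.42 (SE 0.296, edgeR adjusted p = 0.852) and DNAJB4 -0.45 (SE 0.357, edgeR adjusted p = 0.879), and the median over the members was -0.14, against 0.21 without replicate 2.

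**Figure D4:**
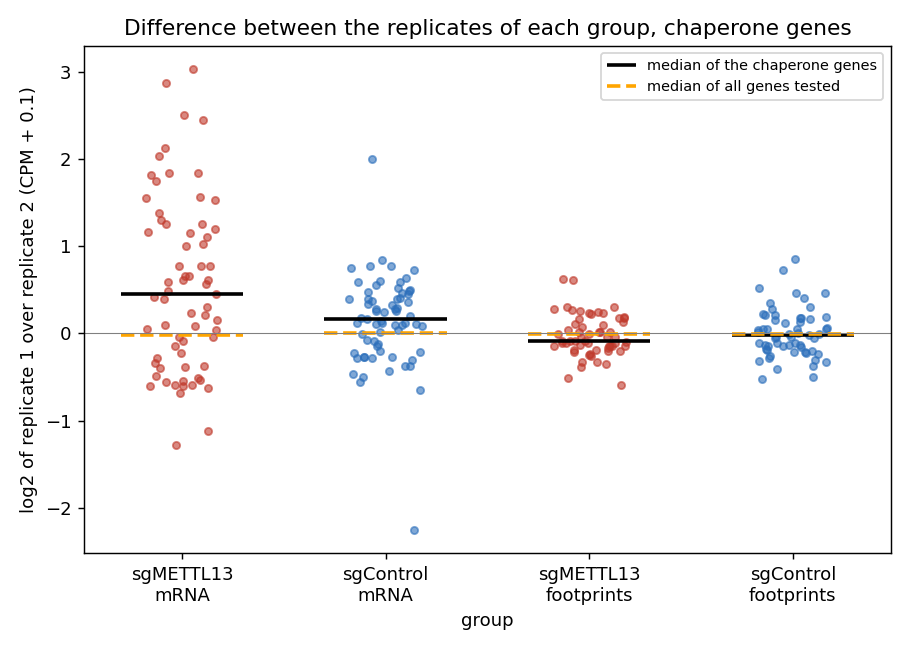
Log2 ratio of replicate 1 to replicate 2 (CPM + 0.1) for the chaperone genes tested, 67 in mRNA and 59 in footprints, in each group, 1 point per gene, with the median of these genes as a black line and that of all genes tested as a dashed line. The points of sgMETTL13 mRNA spread the most and their median is 0.46, while in both footprint groups they stay within 1 on either side.

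Footprints per mRNA, tested as the interaction of assay and guide, gave no call for any member. The common coefficient of variation that edgeR estimated was 0.0992 in footprints, 0.337 in mRNA and 0.261 in this model. Footprints tested in the same model of all 8 libraries also gave no call among 10446 genes. A missing call here therefore does not show that a gene did not differ. edgeR called 0 of 58 members and 0% of 10446 genes, with 1 member and 347 genes at an unadjusted p below 0.05. DESeq2 and limma voom called no member. The median log2 change was -0.11 over the members and -0.11 over all genes. It moved with single mRNA libraries: over the members it was 0.14 without sgMETTL13 replicate 1, -0.25 without sgMETTL13 replicate 2 and -0.25 without sgControl replicate 1, and with DESeq2 it was -0.01. The smallest p values belonged to DNAJB2 (log2 fold change -1.03, SE 0.442, edgeR adjusted p = 0.999), HSPA8 (log2 fold change 0.63, SE 0.326, edgeR adjusted p = 0.999) and DNAJB1 (log2 fold change -0.72, SE 0.396, edgeR adjusted p = 0.999). For HSPA8 the mRNA stood at -0.23 (SE 0.342) beside footprints at 0.38 (SE 0.119), and for DNAJB1 at -0.27 (SE 0.342) beside -0.998 (SE 0.195). Without 1 sgMETTL13 mRNA library that group held 1 library, so only log2 changes are given. DNAJB2 stood at -1.35 without sgMETTL13 mRNA replicate 1 and at -0.70 without replicate 2. Without replicate 2 HSPE1 stood at -2.15, DNAJB14 at -2.14, DNAJB4 at -1.97, DNAJC25 at -1.90 and HSPA13 at -1.39. Without replicate 1 the same genes read 0.77, -0.12, 0.81, 0.51 and 0.94 in that order. The sign of each except DNAJB14 thus changed with the library left out.

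The log2 ratio of footprint CPM to mRNA CPM is given for 5 members by library. It is not corrected for the share of each transcript that is coding, so it is compared between groups and not between genes. HSPA4 had ratios of 1.95 and 3.15 in sgMETTL13, against 2.67 and 3.11 in sgControl. The groups overlapped there, as they did for DNAJA2 with 2.98 and 3.24 in sgMETTL13, against 3.03 and 3.30 in sgControl, and for HSF1 with -2.91 and -3.26 in sgMETTL13, against -3.06 and -3.62 in sgControl. DNAJB1 had -3.85 and -3.86 in sgMETTL13, against -3.27 and -3.01 in sgControl. HSPA8 had -2.08 and -1.38 in sgMETTL13, against -2.36 and -2.39 in sgControl. In DNAJB1 both sgMETTL13 ratios lay below both sgControl ratios and in HSPA8 above them, and neither passed the test. Both genes were already among the smallest p values of that test. Each ratio divides libraries of the same replicate number, a pairing that the labels do not state. How many of all genes have ratios that lie apart in this way was not counted.

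The partners of these chaperones outside the set gave calls in both directions in footprints. Of 15 co-chaperones of HSP90 and HSP70 none rose and 5 fell, with a median log2 fold change of -0.11, where 8.94% of all genes rose and 12% fell. CDC37, which brings kinases to HSP90, had 277 and 279 CPM in sgMETTL13, against 400.2 and 504 CPM in sgControl (log2 fold change -0.70, SE 0.128, edgeR adjusted p = 0.000322), and HSPBP1, a nucleotide exchange factor of HSP70, had 179 and 152 CPM in sgMETTL13, against 219 and 259.6 CPM in sgControl (log2 fold change -0.53, SE 0.133, edgeR adjusted p = 0.00512). Of 12 prefoldin and phosducin-like partners of TRiC 2 rose and 1 fell, with a median of 0.27. The prefoldin subunit PFDN4 had 42.9 and 59.2 CPM in sgMETTL13, against 27.6 and 19.3 CPM in sgControl (log2 fold change 1.10, SE 0.182, edgeR adjusted p = 0.000103), and PDRG1, of a prefoldin-like complex, had 40.5 and 31.2 CPM in sgMETTL13, against 52.9 and 67.2 CPM in sgControl (log2 fold change -0.74, SE 0.163, edgeR adjusted p = 0.00196). Without sgControl replicate 2, 1 co-chaperone fell (4.64% of all genes), without sgMETTL13 replicate 1, 3 fell (8.06%), and without sgMETTL13 replicate 2, 2 did (4.11%). Without sgControl replicate 1, 1 rose and 5 fell (12.7% and 14.6%). HSPBP1 was not called without either replicate 2. Of the TRiC partners 1 rose without sgControl replicate 2 or sgMETTL13 replicate 2, and PDRG1 was not called without sgMETTL13 replicate 2.

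These 3 lists stand against the same 8.94% of all genes that rose and 12% that fell. Of 12 mitochondrial folding and quality control genes tested none rose and 3 fell, with a median of -0.05, led by the inner membrane protease gene SPG7 at -0.70 (SE 0.188) and TIMM44, of the import motor, at -0.45 (SE 0.129). Of 6 genes tested from the list of other heat-inducible genes 2 rose and none fell, with a median of 0.28. These were SERPINH1, the collagen chaperone of the endoplasmic reticulum, at 0.51 (SE 0.12) and HSBP1, an HSF1-binding protein, at 0.72 (SE 0.188). Whether HSBP1 is itself heat-inducible was not tested, and apart from it only SERPINH1 rose. Of the 6 chaperones of the endoplasmic reticulum 3 rose and none fell, with a median of 0.30, led by DNAJB9 at 0.79 (SE 0.266) and DNAJC3 at 0.48 (SE 0.162). The calls moved with single libraries: without sgMETTL13 replicate 2 none of the 3 lists held a call (2.33% of all genes rose and 4.11% fell), without sgControl replicate 2 they held 1, 2 and 0 calls in that order (2.86% and 4.64%), and without sgMETTL13 replicate 1 they held 2, 3 and 1 (6.66% and 8.06%). Without sgControl replicate 1 they held 3, 2 and 2 (12.7% and 14.6%). DNAJB9 was not called without any 1 of the 4 libraries. No gene of the 5 lists passed in mRNA or in footprints per mRNA with all libraries. Without sgMETTL13 mRNA replicate 2, the mRNAs called higher numbered 2 co-chaperones, 4 TRiC partners, 2 mitochondrial genes, no heat-inducible gene and 4 of the 6 endoplasmic reticulum chaperones (18.7% of all genes), and in footprints per mRNA 2, 3, 1, 0 and 1 were lower in that order (12%) and 1 heat-inducible gene was higher. Without replicate 1 no mRNA of the lists was called, and in footprints per mRNA 3 co-chaperones, 1 TRiC partner and 1 mitochondrial gene were lower (3.14%) and 1 TRiC partner was higher.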

How the data were processed

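RNA-seq and ribosome profiling of T3M4 cells gave 8 libraries, in 4 groups of 2 taken from the labels. The values deposited by the authors are raw counts by gene symbol. The submitters' processing notes name HISAT2 2.0.4, cutadapt 1.18, Bowtie 1.2.2, featureCounts, UMI-tools and the hg38 build. Their roles, the annotation, the strand setting and the handling of reads that match several places are not given in the sources used here.

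The quasi-likelihood F test of edgeR 4.0.16 (R 4.3.3) was run with TMM factors after filterByExpr, on footprint and RNA libraries apart and, for footprints per mRNA, as the interaction in a model of all 8 libraries. Benjamini-Hochberg adjustment covered all genes tested, the threshold was 0.05, and adjusted p are from edgeR unless named otherwise. SEs were derived from the fold change and F. The fits were tested on simulated data. Alternatives were DESeq2 1.42.0, limma voom (3.58.1), other size factors, no filter, each library left out and a replicate block. Leaving out a library left 1 in its group, so calls from such a fit hold no measure of the spread within that group.

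The members and gene lists were chosen with earlier results of these data known. Named genes were a fixed core, every member past the threshold in footprints, the 3 smallest p elsewhere and up to 2 genes per list. Others were named after their values were seen. No coding lengths were used, so levels are not compared between genes.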

Additional observations from a re-analysis of the deposited data

How the results depend on the processing

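Members that rose in footprints numbered 9, and 4 with DESeq2, 1 with the replicate block and 0 in the model over all 8 libraries; with each library left out they numbered 0 to 10. Members that fell numbered 6, and 0 in the model over all 8 libraries; with each library left out they numbered 1 to 11. In mRNA the members called higher were 0 to 19 and lower 0 to 1 with each library left out, and in footprints per mRNA 0 to 12 were lower. The 12, of 58 members tested, were found without sgMETTL13 mRNA replicate 2, where 12% of all genes were lower. That fit left 1 library in the group, so these calls hold no measure of the spread between the sgMETTL13 mRNA libraries. HSPE1 and DNAJB4 mRNA changed sign without sgMETTL13 replicate 1 (-0.42 and -0.45), and with 1 library left out ran up to 3.05 and 2.38. None of the 15 members called in footprints changed sign under any alternative run. This was largely set in advance, as they were picked by the test on the same counts and their groups did not overlap. RLE factors ended 2 of the calls, upper quartile factors 1 and limma voom 1. Upper quartile factors moved the median mRNA change of all genes from 0.04 to -0.04. For these results the cause was not tested. The labels do not say that replicate numbers pair libraries. Between the arms, the differences of replicate 1 from replicate 2 had a Pearson r of 0.38 over 12468 genes in mRNA and -0.17 over 10714 in footprints. With the replicate block 1 member rose and 4 fell in footprints and none was called in mRNA or in footprints per mRNA. Levels per coding length were not run, since no coding lengths were used. The 13 members below the footprint filter were not tested there.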

Other observations

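Several members had far fewer reads in one assay than in the other. BAG6, which guards tail-anchored and misplaced membrane proteins and lies at 31639028 to 31652661 on chromosome 6 (GRCh38), had mRNA of 56 and 121 counts in sgMETTL13, against 47 and 133 counts in sgControl. Its footprints had 869 and 683 counts in sgMETTL13, against 677 and 525 counts in sgControl. The footprints did not pass (log2 fold change -0.07, SE 0.141, edgeR adjusted p = 0.768), while in mRNA replicate 2 lay above replicate 1 in both groups, against the direction of most members. DNAJA3 mRNA had 3 and 3 counts in sgMETTL13, against 1 and 0 counts in sgControl, while its footprints had 57 and 34 counts in sgMETTL13, against 25 and 23 counts in sgControl. HSPE1 mRNA ran from 141 to 4827 counts over the 4 libraries, or 102 and 12.4 CPM in sgMETTL13 and 27.5 and 6.79 CPM in sgControl, while its footprints stayed between 138 and 209 CPM. The cause of these differences was not tested.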
